A study of Mus musculus with 28 samples.

Results

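The 10 genes described here encode activator protein 1 (AP-1) subunits and other immediate early factors, and were chosen by name from the 55450 genes of the RNA-seq table: Fos, Fosb, Fosl2, Jun, Junb, Jund, Atf3, Batf3, Egr1 and Ier2. All 10 had a row, and their values were read in all 12 RNA-seq libraries as TPM (the share of each transcript among all transcripts of a library, corrected for transcript length). The cells were C10, a Pre-B line of mouse origin with a transgene of rat C/EBPα fused to the hormone-binding domain of the estrogen receptor (C/EBPαER), so that the fusion protein enters the nucleus when β-estradiol is added. The study collected 3 libraries each of uninduced cells (0h) and of cells 1h, 12h and 48h after addition of 100 nM β-estradiol, 10 nM IL-3 and CSF-1, over which the Pre-B cells convert to macrophages. Uninduced cells carry the same transgene. No vehicle control or single-agent group is among the samples, so that β-estradiol, the cytokines and the handling of the dishes cannot be told apart. C10 is 1 cell line, and the labels call the 3 libraries of a time point biological replicates without stating separate cultures, so p-values measure the spread between these libraries.

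AP-1 is a family of dimers of basic leucine zipper (bZIP) proteins. Fos proteins do not pair with one another and need a Jun partner, whereas Jun proteins also form Jun to Jun dimers. ATF and BATF proteins join the same network and shift the DNA sites that are bound. Immediate early genes are transcribed within minutes of a mitogen, cytokine or stress signal, without new protein synthesis, through kinases of the MAPK cascades that act on factors such as SRF, and their mRNAs are short-lived. In macrophages, AP-1 subunits are known to bind enhancers together with PU.1 and C/EBP factors.

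The promoters of the bZIP genes Fos, Fosb, Jun, Junb and Atf3 are shown. Their windows overlap an annotated exon by at most 7 bases, against 250 for Fosl2 and 89 for Batf3, which are not printed. The window of Jund overlaps no annotated exon and is not printed either. Each sequence gives the 250 bases before the RefSeq transcription start (GRCm38.p6), 5′ to 3′ on the gene's strand, with motif matches in capitals. Positions are counted from -1 at the last base before the start.
Fos (chr12:85473640-85473889, plus strand): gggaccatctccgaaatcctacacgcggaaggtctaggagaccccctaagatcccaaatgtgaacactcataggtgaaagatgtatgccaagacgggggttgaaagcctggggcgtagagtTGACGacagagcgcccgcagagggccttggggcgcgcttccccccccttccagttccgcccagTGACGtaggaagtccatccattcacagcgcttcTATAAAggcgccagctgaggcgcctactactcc
Fosb (chr7:19310046-19310295, minus strand): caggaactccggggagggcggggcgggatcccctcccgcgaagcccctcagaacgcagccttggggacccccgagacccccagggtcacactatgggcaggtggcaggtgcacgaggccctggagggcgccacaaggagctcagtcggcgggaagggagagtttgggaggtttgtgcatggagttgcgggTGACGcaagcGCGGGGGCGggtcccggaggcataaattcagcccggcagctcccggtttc
Jun (chr4:95052223-95052472, minus strand): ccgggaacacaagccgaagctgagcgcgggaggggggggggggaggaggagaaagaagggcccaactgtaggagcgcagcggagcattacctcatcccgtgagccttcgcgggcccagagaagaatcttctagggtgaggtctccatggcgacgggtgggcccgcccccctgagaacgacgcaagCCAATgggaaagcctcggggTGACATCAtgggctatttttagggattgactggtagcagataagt
Junb (chr8:84978749-84978998, minus strand): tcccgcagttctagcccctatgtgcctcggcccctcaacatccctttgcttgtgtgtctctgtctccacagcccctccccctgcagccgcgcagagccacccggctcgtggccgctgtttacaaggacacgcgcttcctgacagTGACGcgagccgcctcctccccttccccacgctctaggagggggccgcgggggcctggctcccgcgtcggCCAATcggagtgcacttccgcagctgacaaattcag
Atf3 (chr1:191183334-191183583, minus strand): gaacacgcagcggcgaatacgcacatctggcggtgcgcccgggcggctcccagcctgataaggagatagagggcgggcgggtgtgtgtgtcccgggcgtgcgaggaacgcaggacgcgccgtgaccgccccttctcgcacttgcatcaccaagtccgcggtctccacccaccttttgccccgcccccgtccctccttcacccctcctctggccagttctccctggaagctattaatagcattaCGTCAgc
The motifs searched on both strands were the AP-1 site TGANTCA, the CRE-like site TGACNTCA, the shorter CRE core TGACG (which can overlap the CRE-like site), the C/EBP core TTGCNNAA, the CCAAT box, the TATA box TATAAA, the EGR site GCGGGGGCG and the CArG box bound by SRF. Fos holds TGACG at -129 to -125 and at -66 to -62, and TATAAA at -33 to -28. Fosb holds TGACG at -60 to -56 followed by GCGGGGGCG at -50 to -42. Jun holds TGACATCA, a CRE-like site, at -45 to -38 and CCAAT at -65 to -61. Junb holds TGACG at -106 to -102 and CCAAT at -36 to -32, and Atf3 holds TGACG on its opposite strand (CGTCA as printed) at -7 to -3. The RefSeq start used for Atf3 lies within the gene, 34706 bases from its GENCODE start. Among 32851 RefSeq promoters of the same length, 17.8% hold TGACG, 7.49% the CRE-like site, 33.9% CCAAT, 12.4% TATAAA and 2.57% the EGR site. TGANTCA (6.75% of promoters), the C/EBP core (9.56%) and the CArG box (1.47%) did not match in these 5 windows. Bases further upstream were not searched, so sites there would be missed. Among the windows not printed, that of Jund holds the C/EBP core (TTGCTCAA, -152 to -145), before a RefSeq start that lies 1210 bases from the GENCODE start, and that of Fosl2 holds the EGR site at -79 to -71. The matches are letters in a window and describe no binding.

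In GRCm38 with GENCODE M21, Fos lies on chromosome 12 (85473890 to 85477273, plus strand), Fosb on chromosome 7 (19302696 to 19310051, minus), Fosl2 on chromosome 5 (32135801 to 32157842, plus) and Jun on chromosome 4 (95049034 to 95052222, minus). Chromosome 8 holds Ier2 (84661331 to 84662852, minus), Junb (84974484 to 84978718, minus) and Jund (70698949 to 70700616, plus). Chromosome 1 holds Batf3 (191097847 to 191108945, plus) and Atf3 (191170296 to 191218039, minus). Jun, Junb, Jund and Ier2 are genes of 1 exon. The library kit does not mark strand, so reads of Jun and its antisense partner Junos, of Jund and Gm11175, and of the ends of Junb and Prdx2 cannot be told apart.

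A pair of genes at a ribosomal RNA locus took 70.3% to 82.9% of the TPM of each library and left more for all other genes in the 1h libraries than in those of 0h. It left less in 48h replicates 1 and 2, while in 48h replicate 3 the pair took 75.7%, against at least 76.9% at 0h. Over all 16415 genes tested, the median log2 difference from 0h was 0.59, 0.34 and -0.18 at 1h, 12h and 48h. Dividing the TPM by median-of-ratios size factors brought these medians to 0.02, 0.07 and 0.07. Where this scaling changes a call or a direction below, the scaled value stands beside the first. The summed TPM of 8 Pre-B markers fell from 293 to 333 at 0h to 26.9 to 38.4 at 48h. That of 9 macrophage markers was 3.65 to 5.11 at 0h, 229 to 327 at 12h and 191 to 269 at 48h. Lyz2 and Cd14 had the highest means of these 9 over the 12 libraries (80.1 and 24.6 TPM), and Adgre1 and Mrc1 the lowest (0.03 and 0.32). The part of this change of cell state in the values below was not tested. The sum of 12 markers of other cells was at most 0.11 at 0h and 1h and 0.88 to 2.87 at 12h and 48h, with 10 of the 12 at 0 throughout each of those time points. In bulk RNA, fewer cells of a type and less RNA per cell cannot be told apart.

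**Figure D1:**
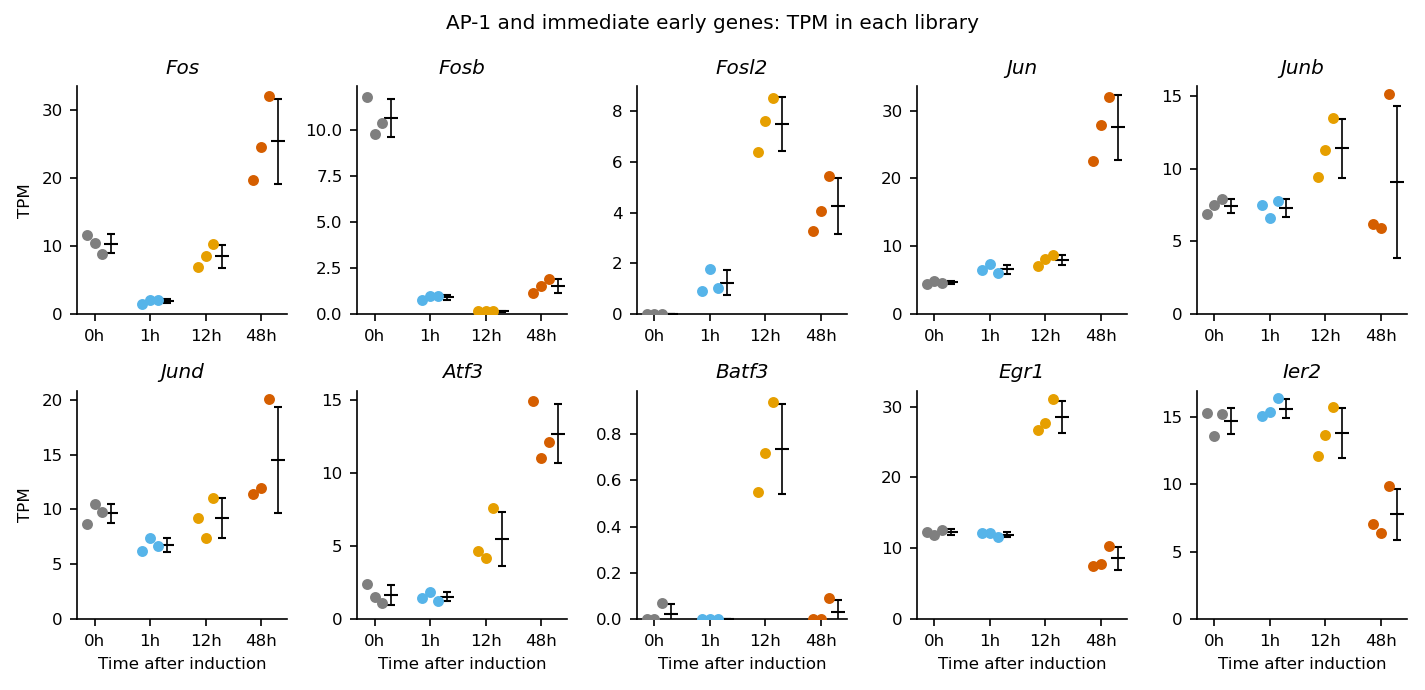
TPM of each of the 10 genes (vertical axis, from 0) in the 3 libraries of each time point, with the mean and SD as a bar beside the points. Fosb is highest at 0h, Fosl2 is near 0 at 0h and 6.38 to 8.49 at 12h, and Fos, Jun and Atf3 are highest at 48h.

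Among the Fos family genes, Fos and Fosb were lower and Fosl2 was higher at 1h than at 0h. Fos, the founding member and the usual marker of immediate early transcription, stood at 11.71, 10.55 and 8.94 TPM in the 0h libraries, at 1.55, 2.04 and 2.06 at 1h, at 6.90, 8.53 and 10.29 at 12h, and at 19.71, 24.64 and 32.08 at 48h. The 1h libraries all lay below and the 48h libraries all above those of the other time points, while 12h and 0h overlapped. On the log2(TPM + 0.1) scale Fos fell by 2.41 ± 0.22 (SE, n = 3 against 3) at 1h (limma with Benjamini-Hochberg adjustment over all genes tested, adjusted p = 4.5e-05) and was 1.26 ± 0.22 above 0h at 48h (limma adjusted p = 0.00067). At 12h the difference from 0h was -0.29 (limma adjusted p = 0.37), and after scaling it was -0.62 (limma adjusted p = 0.019). The rise from 1h to 48h, its lowest and highest time points, was 3.67 on the log2 scale (limma adjusted p = 1.6e-07). This comparison was added after seeing the data.

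Fosb, a Fos protein known for its truncated splice form in neurons, stood at 11.81, 9.81 and 10.40 TPM at 0h, close to Fos. It stood at 0.77, 1.01 and 0.97 at 1h, at 0.15, 0.19 and 0.15 at 12h, and at 1.14, 1.51 and 1.94 at 48h. No libraries overlapped between any time points, and the order was 12h, 1h, 48h and 0h from the lowest. Against 0h it fell by 3.41 ± 0.23 at 1h (limma adjusted p = 5.7e-06), by 5.35 at 12h (limma adjusted p = 4.1e-08) and by 2.75 at 48h (limma adjusted p = 1.9e-06) on the log2 scale. It rose again by 2.60 from 12h to 48h (limma adjusted p = 1.1e-05), and the mean at 48h remained 6.98 times below that at 0h. Fos and Fosb thus parted after 1h: both had fallen, and by 48h Fos was above its 0h level and Fosb was below it.

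Fosl2 encodes Fra-2, a Fos protein without the strong activation domain of Fos. It was listed at 0.02, 0 and 0.02 TPM in the 0h libraries and at 0.90, 1.79 and 1.04 at 1h. The level was 6.38, 7.60 and 8.49 at 12h and 3.27, 4.08 and 5.44 at 48h, with no overlap between any time points. The log2 difference from 0h was 3.52 ± 0.28 at 1h (limma adjusted p = 1.7e-05), 6.06 at 12h (limma adjusted p = 7.8e-08) and 5.24 at 48h (limma adjusted p = 6.7e-08), and the pseudocount of 0.1 understates each, since Fosl2 was near 0 at 0h. From 12h to 48h it fell by 0.82 (limma adjusted p = 0.040), a call that was lost after scaling, where the difference was -0.08 (limma adjusted p = 0.86), and that was lost when any 1 of 6 libraries was left out, with adjusted p from 0.050 to 0.15. Testing all genes without a filter (limma adjusted p = 0.064) and a pseudocount of 0.01 (limma adjusted p = 0.18) also ended it. The 6 libraries were replicate 3 of 0h and of 1h, replicates 2 and 3 of 12h and replicates 1 and 2 of 48h.

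Jun, the partner shared by all Fos proteins, rose late. Its TPM were 4.51, 4.94 and 4.63 at 0h, 6.48, 7.33 and 6.06 at 1h, 7.11, 8.16 and 8.67 at 12h, and 22.61, 27.86 and 32.03 at 48h. The 0h libraries were the lowest and the 48h libraries the highest, with overlap only between 1h and 12h. The log2 difference from 0h was 0.75 ± 0.17 at 12h (limma adjusted p = 0.0056) and 2.51 ± 0.17 at 48h (limma adjusted p = 3.3e-07), which is 5.86 times the 0h mean. At 1h it was 0.48 (limma adjusted p = 0.052) and after scaling -0.17 (limma adjusted p = 0.49), so that its direction at 1h depends on the scale. The 1h difference passed the test without 1h replicate 3, 12h replicate 3, 48h replicate 1 or 48h replicate 3 (adjusted p from 0.033 to 0.047).

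Junb and Jund moved less. Junb, a Jun protein with weaker activation that is known as a brake on myeloid cell numbers, stood at 6.89, 7.48 and 7.89 TPM at 0h, 7.53, 6.59 and 7.76 at 1h, 9.42, 11.27 and 13.48 at 12h, and 6.22, 5.92 and 15.10 at 48h. The 12h libraries lay above those of 0h and 1h, but none of its 5 main comparisons passed the test as deposited (limma adjusted p from 0.16 to 0.97). After scaling, it was 0.94 higher at 12h than at 1h (limma adjusted p = 0.036), and its difference of 48h from 12h turned from -0.45 to 0.29 (limma adjusted p = 0.52). The 48h libraries were split, with replicate 3 at 15.10 against 6.22 and 5.92. Without 48h replicate 3, Junb was 0.60 above 0h at 12h (limma adjusted p = 0.016) and 0.62 above 1h (limma adjusted p = 0.017). It was then 0.88 lower at 48h than at 12h on the log2 scale (limma adjusted p = 0.0032).

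Jund, the most steadily expressed Jun protein in many cells, stood at 8.68, 10.46 and 9.74 TPM at 0h and 6.18, 7.43 and 6.62 at 1h. It stood at 9.18, 7.40 and 11.01 at 12h and 11.44, 11.97 and 20.11 at 48h. The 1h libraries lay below and the 48h libraries above those of 0h, without overlap. As deposited, the log2 differences were -0.51 at 1h (limma adjusted p = 0.12) and 0.54 at 48h (limma adjusted p = 0.077). After scaling they were -1.16 (limma adjusted p = 0.0044) and 0.95 (limma adjusted p = 0.0025), which passed. The antisense partner Gm11175 stood at 17.06 TPM in 48h replicate 3 and at 0.40 and 0.25 in the other 48h libraries, so the library with the highest Jund value also held the highest value of the gene on its other strand. Its part in the Jund value was not tested. As deposited, the Jund difference at 1h passed without 48h replicate 3 (limma adjusted p = 0.046) and the one at 48h passed without 48h replicate 1 (limma adjusted p = 0.047), but without 48h replicate 3 the latter was 0.28 (limma adjusted p = 0.26). From 12h to 48h Jund differed by 0.62 (limma adjusted p = 0.053), by 0.76 without 12h replicate 3 (limma adjusted p = 0.043), by 0.77 without 48h replicate 1 (limma adjusted p = 0.039), by 0.36 without 48h replicate 3 (limma adjusted p = 0.16) and by 1.36 after scaling (limma adjusted p = 0.00063).

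Atf3, a stress-induced bZIP protein that restrains inflammatory genes in macrophages, rose in steps. Its TPM were 2.42, 1.49 and 1.09 at 0h, 1.45, 1.88 and 1.27 at 1h, 4.69, 4.17 and 7.64 at 12h, and 14.95, 11.04 and 12.13 at 48h. The 0h and 1h libraries overlapped, and the 12h and 48h libraries lay apart above them. Atf3 rose by 1.68 ± 0.30 at 12h (limma adjusted p = 0.0017) and by 2.92 ± 0.30 at 48h (limma adjusted p = 1.3e-05) against 0h, and by 1.23 from 12h to 48h (limma adjusted p = 0.0084). At 1h the difference was -0.06 (limma adjusted p = 0.91).

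Batf3, a small bZIP protein without an activation domain that is needed for one class of dendritic cells, was listed at 0.55, 0.72 and 0.94 TPM in the 12h libraries. It was listed at 0, 0 and 0.07 at 0h, at 0 in all 3 libraries at 1h, and at 0, 0 and 0.09 at 48h. Only the 12h libraries brought it past the filter of a mean TPM of 0.1 (its mean over the other libraries was 0.018), so that any test of 12h had to differ, and none is given. Batf3 lies beside Atf3 on chromosome 1, and the neighbours differed in time, with Batf3 seen at 12h and Atf3 highest at 48h.

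Egr1 (chromosome 18, 34859823 to 34864984, plus strand), a zinc finger factor of the immediate early response that is linked to macrophage differentiation, was highest at 12h. Its TPM were 12.33, 11.86 and 12.64 at 0h, 12.15, 12.09 and 11.57 at 1h, 26.76, 27.62 and 31.02 at 12h, and 7.51, 7.82 and 10.37 at 48h. The 12h libraries stood alone at the top, the 48h libraries were the lowest as deposited, and 0h and 1h overlapped. Egr1 rose by 1.20 ± 0.15 at 12h against 0h (limma adjusted p = 0.00014) and fell by 1.73 from 12h to 48h (limma adjusted p = 1.1e-05), both also after scaling (0.87 and -0.99). The other differences depended on the scale. At 1h it was -0.04 (limma adjusted p = 0.87) as deposited and -0.70 (limma adjusted p = 0.0063) after scaling. At 48h against 0h it was -0.53 (limma adjusted p = 0.015) as deposited and -0.12 (limma adjusted p = 0.48) after scaling.

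Ier2, a nuclear protein of the early response whose function is less well defined, fell late as deposited, and the timing of its fall depended on the scale. Its TPM were 15.27, 13.60 and 15.21 at 0h, 15.08, 15.39 and 16.42 at 1h, 12.08, 13.63 and 15.75 at 12h, and 7.06, 6.36 and 9.90 at 48h. As deposited, the first 3 time points overlapped and the 48h libraries lay below them. After scaling, the 48h libraries (8.87 to 13.2) overlapped those of 1h (9.68 to 12.4) and 12h (11.3 to 12.2). Against 0h it fell by 0.93 ± 0.18 at 48h (limma adjusted p = 0.0013), and by 0.53 after scaling (limma adjusted p = 0.021). From 12h to 48h it fell by 0.84 (limma adjusted p = 0.0038), whereas after scaling the difference was -0.10 (limma adjusted p = 0.73). At 1h its difference from 0h was 0.09 (limma adjusted p = 0.74) as deposited and -0.57 (limma adjusted p = 0.050) after scaling.

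**Figure D2:**
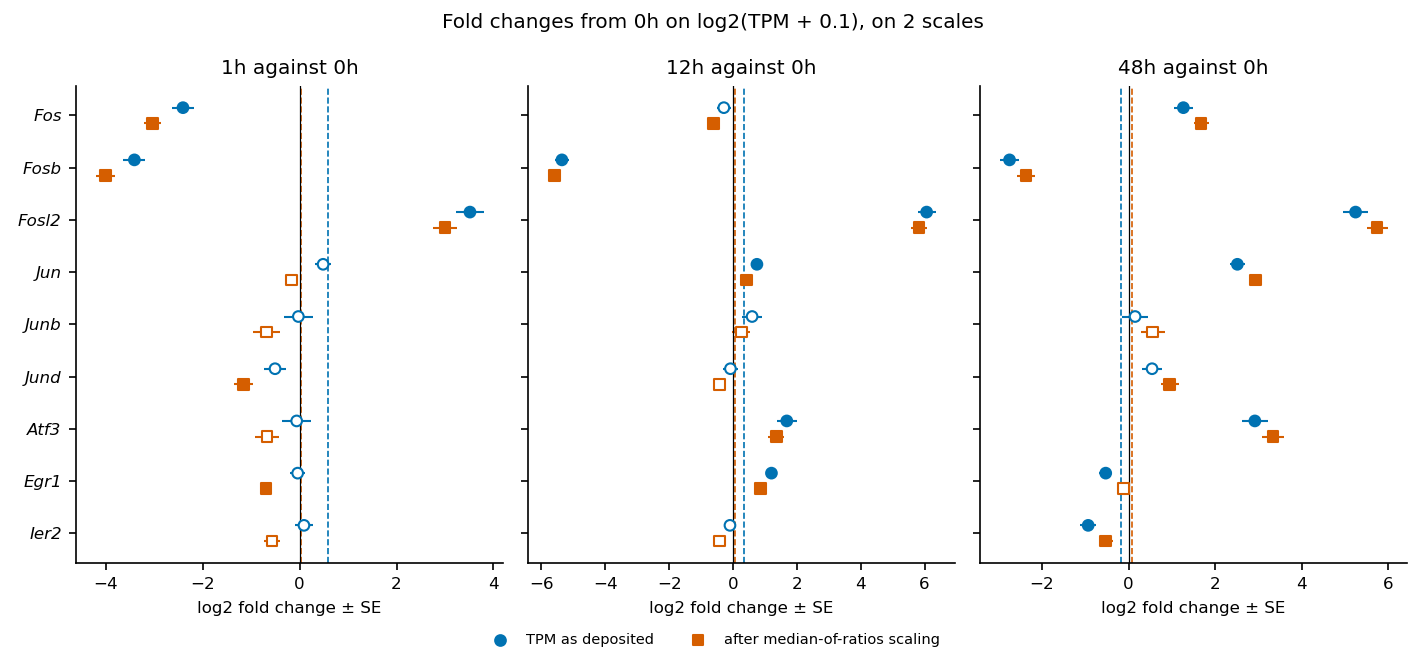
Log2 fold change against 0h (horizontal axis, with SE, n = 3 against 3) of 9 of the genes at 1h, 12h and 48h, from the TPM as deposited (circles) and after median-of-ratios scaling (squares), with filled symbols for an adjusted p under 0.05 and dashed lines at the median of all genes tested on each scale. Fosb is at -5.35 and Fosl2 at 6.06 at 12h, and the circles of Jun and Ier2 at 1h lie right of 0 while their squares lie left of it.

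The counts that follow are over the 9 genes other than Batf3, since its calls against 12h are fixed by the filter. At 1h Fosl2 passed as higher (all genes: 24.1%) and Fos and Fosb as lower (all genes: 1.41%) than at 0h, and the others did not pass. After scaling, Fosl2 passed as higher (all genes: 5.42%) and Fos, Fosb, Jund and Egr1 as lower (all genes: 4.92%). At 12h, Fosl2, Jun, Egr1 and Atf3 were higher than at 0h (all genes: 22.3%, and 16.0% after scaling) and Fosb was lower (7.82%). Scaling added Fos as a second lower gene (all genes: 14.5%). At 48h, Fos, Fosl2, Jun and Atf3 were higher (15.9%) and Fosb, Egr1 and Ier2 lower (27.2%), while after scaling Jund joined the higher genes (24.5%) and Egr1 left the lower ones (22.0%). The 9 genes had median log2 differences from 0h of -0.04, 0.60 and 0.54 at 1h, 12h and 48h, beside 0.59, 0.34 and -0.18 for all genes tested.

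Between consecutive time points, 4 of the 9 genes rose from 1h to 12h (Fos, Fosl2, Egr1 and Atf3, all genes: 6.98%) and Fosb fell (all genes: 15.0%). After scaling 7 rose (all genes: 11.3%), with Jun (0.58, limma adjusted p = 0.0091), Junb (0.94, limma adjusted p = 0.036) and Jund (0.75, limma adjusted p = 0.024) added, and Fosb alone fell (8.77%). From 12h to 48h, Fos, Fosb, Jun and Atf3 rose (all genes: 4.10%) and Fosl2, Egr1 and Ier2 fell (all genes: 31.7%). After scaling, Jund joined those that rose (all genes: 10.5%), and Egr1 was the one that fell (all genes: 11.9%). The rises of Fos (1.55), Jun (1.76), Fosb (2.60) and Atf3 (1.23) from 12h to 48h passed on both scales, in a comparison whose median over all genes tested was -0.62 as deposited and -0.01 after scaling.

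The make-up of the 10 genes within a library does not depend on the scale between libraries. Ier2 and Egr1 held the largest mean shares of their summed TPM at 0h, at 20.5% ± 1.1 and 17.2% ± 0.6 (SD, n = 3), with Fosb at 14.9% ± 1.0 and Fos at 14.5% ± 1.7. At 1h Ier2 held 29.1% ± 1.4, while Fos held 3.49% ± 0.46 and Fosb 1.70% ± 0.19. At 12h Egr1 held 30.7% ± 1.7 and Fosl2 8.03% ± 0.44. At 48h Jun held 24.9% ± 2.4 and Fos 22.8% ± 1.7, with Ier2 at 6.97% ± 0.63 and Egr1 at 7.73% ± 0.27. Jun and Fos thus replaced Ier2 and Egr1 at the head of the list. The summed TPM of the 10 genes, which does depend on the scale, was 71.5 ± 1.9 in uninduced cells and 53.8 ± 1.7, 93.3 ± 12.6 and 111 ± 24 after 1h, 12h and 48h. After scaling the sums were 77.3 ± 6.4, 36.8 ± 3.6, 79.2 ± 1.1 and 159 ± 23.

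**Figure D3:**
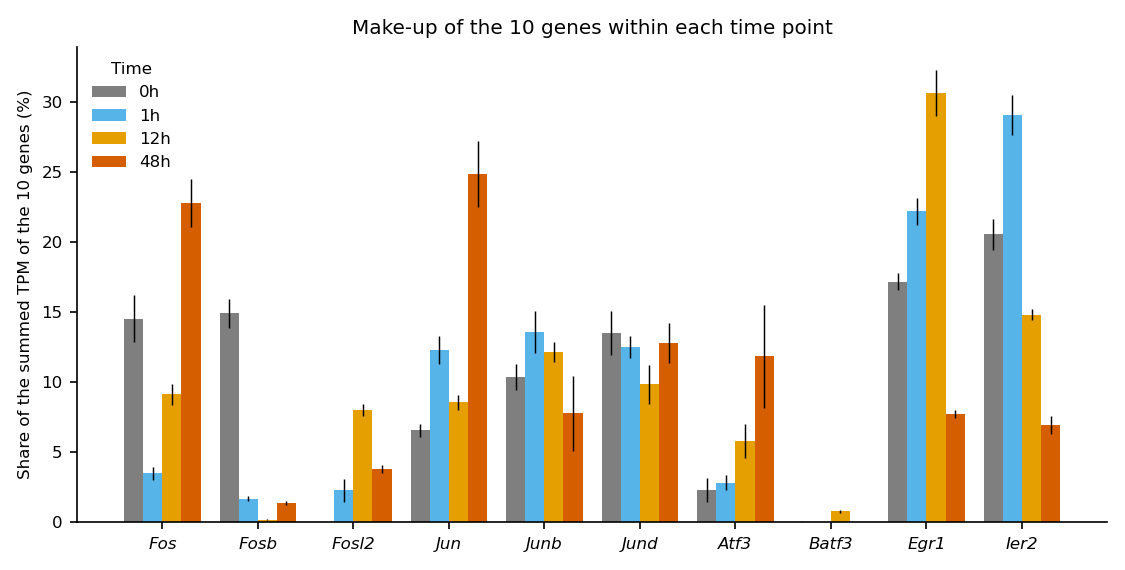
Share of each gene in the summed TPM of the 10 genes (vertical axis, percent, from 0) at each time point, as the mean of 3 libraries with SD. Ier2 holds the largest share at 1h (29.1%), Egr1 at 12h (30.7%), and Jun (24.9%) and Fos (22.8%) hold the largest at 48h.

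Over the 12 libraries, which share 4 time points, the levels of the 10 genes fell into more than one pattern. Pearson's r of log2(TPM + 0.1) was 0.87 between Fos and Jund, 0.88 between Jun and Atf3, -0.89 between Fosb and Fosl2 and -0.86 between Jun and Ier2. Fos and Fosb, alike at 0h, had an r of 0.22. Among the 9331 genes whose mean TPM reached 1, those most like Fos were Ccnd1 (0.95), Pml (0.95) and Plekho1 (0.93), and those most like Fosb were Il7r (0.96), Gimap6 (0.95) and Gimap4 (0.94). Fosl2 was most like Ncf1, Tlr2 and Vps13c (0.99, 0.99 and 0.98) and Jun most like Daxx, Cfp and H2-T23 (0.99, 0.98 and 0.98). Junb was most like Dok3 (0.94), Jund most like Pml (0.93), Egr1 most like Bcat2 (0.97), Ier2 most like Tmem132e (0.99) and Atf3 most like Colec12 (0.99). These values describe patterns over time and say nothing of control.

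Of 17 other AP-1, ATF, CREB and small MAF genes, 14 could be tested. Against 0h, 6 were higher and 0 lower at 1h by limma as deposited, beside 24.1% higher and 1.41% lower of all genes, and 2 were higher and 1 lower after scaling, beside 5.42% and 4.92%. At 12h, 6 were higher and 0 lower as deposited (all genes: 22.3% and 7.82%), and 4 and 1 after scaling (16.0% and 14.5%). At 48h, 3 were higher and 3 lower (15.9% and 27.2%), and 6 and 2 after scaling (24.5% and 22.0%). The higher genes at 48h include Batf2 on both scales. Batf2 was listed at 0 in each 0h and 1h library and at no more than 0.21 TPM at 12h. Only the 48h libraries brought it past the filter, so its call at 48h is fixed by the filter. The median log2 differences of the 14 genes, 0.72, 0.50 and -0.18, were near those of all genes. Mafg, a small MAF protein that pairs with other bZIP proteins, rose from 1.96 ± 0.30 to 16.0 ± 3.8 TPM (SD, n = 3) at 1h (log2 difference 2.95, limma adjusted p = 0.00013) and stood at 2.88 at 48h. Crem, a CREB family member, rose from 0.78 ± 0.29 to 4.30 ± 1.48 at 48h (limma adjusted p = 0.00086), and its rise at 1h (1.36, limma adjusted p = 0.036) was lost after scaling (limma adjusted p = 0.28). Batf, a relative of Batf3, rose from 0.77 ± 0.17 to 2.74 ± 1.09 at 12h (limma adjusted p = 0.0041), and Batf2, listed at 0 throughout 0h, stood at 3.95 to 5.67 after 48h. Atf4, the effector of the integrated stress response, fell from 45.7 ± 4.2 to 9.20 ± 0.71 at 48h (limma adjusted p = 6.5e-07), and Jdp2, which represses AP-1, from 4.72 ± 1.38 to 2.28 ± 0.66 (limma adjusted p = 0.0085). Fosl1, the remaining Fos family gene, had a mean of 0.0033 TPM at 12h and was listed at 0 in each library of the other time points.

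Of 33 other immediate early genes, 27 could be tested, and they too moved both ways. At 1h, 14 were higher and 3 lower than at 0h by limma as deposited (all genes: 24.1% and 1.41%), and 7 and 7 after scaling (5.42% and 4.92%). At 12h the counts were 14 and 4 (22.3% and 7.82%), and 13 and 4 after scaling (16.0% and 14.5%). At 48h they were 11 and 5 (15.9% and 27.2%), and 14 and 3 after scaling (24.5% and 22.0%). Ier3, a survival factor of the early response, went from 0.03 ± 0.06 to 2.11 ± 0.29 TPM at 1h (log2 difference 4.13, limma adjusted p = 1.1e-05). Ptgs2, the inducible cyclooxygenase, reached 5.25 ± 0.92 at 12h from 0.02 ± 0.02 (limma adjusted p = 2.6e-07). Nr4a3, an orphan nuclear receptor, stood at 1.88 ± 0.21 at 1h against 0.12 ± 0.08 (limma adjusted p = 0.00085). Ier5 fell from 6.63 ± 0.49 to 2.58 ± 0.45 at 1h (limma adjusted p = 0.019), as Fos and Fosb did, and Ifrd1 fell from 7.84 ± 0.40 to 2.22 ± 0.63 at 48h (limma adjusted p = 5.6e-05).

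Upstream of the 10 genes, 20 genes for SRF, its partners and MAPK pathway kinases were tested. At 1h, 10 were higher and 1 lower than at 0h by limma as deposited (all genes: 24.1% and 1.41%), and 3 and 2 after scaling (5.42% and 4.92%). At 12h, 10 and 1 were so again (22.3% and 7.82%), and 7 and 1 after scaling (16.0% and 14.5%). At 48h, 4 were higher and 5 lower (15.9% and 27.2%), against 11 and 2 after scaling (24.5% and 22.0%). Srf, which binds the Fos and Egr1 promoters in many cells, stood at 6.0 ± 1.4 TPM at 0h, 7.71 ± 1.35 at 1h (limma adjusted p = 0.42) and 2.57 ± 1.45 at 48h (log2 difference -1.29, limma adjusted p = 0.0062). Its partner Mrtfa rose from 3.49 ± 0.54 to 13.3 ± 0.6 at 1h (limma adjusted p = 0.00049), and Elk3, an SRF partner that can repress, fell from 6.74 ± 0.66 to 1.77 ± 0.38 (limma adjusted p = 0.00096). Of the kinases, Mapk14 (p38α) rose from 5.17 ± 1.12 to 12.3 ± 0.7 at 1h (limma adjusted p = 0.0013) and its substrate Mapkapk2 from 6.36 ± 0.08 to 24.0 ± 3.9 at 12h (limma adjusted p = 3.9e-05). At 48h Mapk3 (ERK1) was higher, at 12.0 ± 1.9 against 6.76 ± 0.35 (limma adjusted p = 0.012).

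A list of 14 feedback inhibitors of the same signals was also tested. Dusp1, Dusp2 and Zfp36 are also among the other immediate early genes above, so their calls count in both lists. The same holds for Jdp2, which is also among the other AP-1, ATF, CREB and small MAF genes. Of 14, 4 were higher and 3 lower than at 0h after 1h by limma as deposited (all genes: 24.1% and 1.41%), and 0 and 5 after scaling (5.42% and 4.92%). The counts after 12h were 5 and 3 (22.3% and 7.82%), and 4 and 5 after scaling (16.0% and 14.5%). Those after 48h were 3 and 5 (15.9% and 27.2%), and 4 and 5 after scaling (24.5% and 22.0%), and several of these shares are near that of all genes. Dusp2 and Dusp4, nuclear MAPK phosphatases, fell at 1h from 11.6 ± 0.3 to 2.06 ± 0.36 TPM (limma adjusted p = 0.0011) and from 10.3 ± 1.0 to 1.47 ± 0.32 (limma adjusted p = 0.00012). Both were still lower at 48h, at 1.34 ± 0.81 and 2.34 ± 1.12. Dusp1, a phosphatase of p38 and JNK, rose from 0.82 ± 0.19 to 6.60 ± 1.13 at 12h and to 15.9 ± 2.7 at 48h (log2 difference 4.13, limma adjusted p = 3.7e-08). Zfp36, which destabilises AU-rich mRNAs including that of Fos, rose from 3.98 ± 0.43 to 17.8 ± 5.1 at 48h (limma adjusted p = 9.9e-06). At 1h, the rises of Dusp1 (0.89, limma adjusted p = 0.010), Zfp36 (1.12, limma adjusted p = 0.0039) and its relative Zfp36l1 (1.10, limma adjusted p = 0.022) were lost after scaling (limma adjusted p from 0.15 to 0.37).

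**Figure D4:**
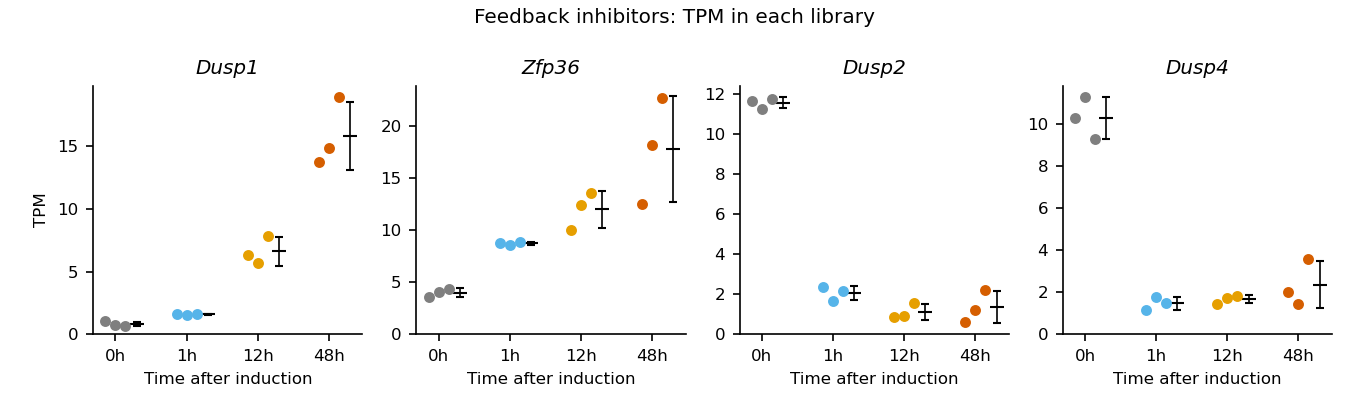
TPM of 4 feedback inhibitors (vertical axis, from 0) in the 3 libraries of each time point, with the mean and SD as a bar. Dusp2 and Dusp4 are high at 0h only, as Fosb is, whereas Dusp1 and Zfp36 are highest at 48h.

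Of 18 genes known as AP-1 targets in other cells, 15 could be tested, and 9 were higher and 1 lower than at 0h after 1h by limma as deposited (all genes: 24.1% and 1.41%), and 7 and 1 after scaling (5.42% and 4.92%). After 12h, 12 were higher and 1 lower on both scales (22.3% and 7.82%, and 16.0% and 14.5% after scaling). After 48h, 12 and 1 were so (15.9% and 27.2%), and 14 and 1 after scaling (24.5% and 22.0%). Their median log2 differences were 1.05, 2.45 and 3.28, and many are also genes of macrophages. Mmp12, the macrophage elastase, went from 0.007 ± 0.012 to 491 ± 83 TPM at 48h (limma adjusted p = 2.7e-11), and Mmp13, a collagenase, from 0.007 ± 0.012 to 100.2 ± 10.0 (limma adjusted p = 2.2e-10). Il1b, listed at 0 throughout 0h, stood at 20.42 to 33.55 after 12h and 28.96 to 37.66 after 48h, and Ccl2, a monocyte chemokine, went from 0.02 ± 0.04 to 16.8 ± 1.1 at 12h (limma adjusted p = 3.9e-09). Hmox1, heme oxygenase, rose from 1.13 ± 0.12 to 7.34 ± 0.70 at 1h (limma adjusted p = 4.0e-05), and the cell cycle inhibitor Cdkn1a from 1.53 ± 0.64 to 4.64 ± 0.66 (limma adjusted p = 0.0014). Ccnd1 (cyclin D1) fell from 17.7 ± 2.2 to 3.28 ± 0.65 at 1h (limma adjusted p = 1.0e-05) and stood at 8.37 at 12h, still below 0h (limma adjusted p = 0.00094), and at 24.7 at 48h. Vegfa fell from 11.8 ± 0.8 to 3.14 ± 0.18 at 48h (limma adjusted p = 5.1e-07).

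Promoter Capture Hi-C (PCHi-C) enriches a Hi-C library for HindIII fragments that carry promoters (baits) and lists the fragments each bait contacts. There is 1 list for each time point, made from 2 merged replicates, so a change between lists has no replicate check, and neighbouring fragments are not independent. Each of the 10 genes had 1 bait. The baits of Jun, Jund and Ier2 also hold the starts of Junos and Gm12703, of Gm11175, and of Gm26664. The baits of Egr1 and Atf3 hold a start of another transcript of the gene and not that of its principal transcript, which is on no bait with a listed contact. The bait of Atf3 holds the RefSeq start used for its promoter sequence above. The 10 baits together had 309 listed contacts before induction and 254, 228 and 236 at 1h, 12h and 48h, and without those of Egr1 and Atf3 278, 231, 210 and 220, among lists of 138769, 137836, 131598 and 144072 contacts. The median bait had 4 contacts in each list.

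The bait of Fosl2 (chromosome 5, 32134450 to 32138359) gained contacts after 1h. It had 55 in each of the 0h and 1h lists, then 86 and 95 in those of 12h and 48h, more than at least 98.7% of the 18175 baits at each time. All 55 at 0h lay upstream of the gene, toward Babam2, Rbks and Mrpl33. At 0h, 10 contacts lay 100 to 400 kb away and 45 lay 400 to 600 kb away, whereas at 48h the numbers were 45 and 48, so the added contacts filled the nearer stretch. Of the 55 contacts at 0h, 50 were also listed at 48h (90.9% of the 0h and 52.6% of the 48h contacts). The gain of 40 contacts from 0h to 48h exceeded that of 99.7% of baits.

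The bait of Jun (chromosome 4, 95047997 to 95053468) had the most contacts of the 10 genes at 0h and fewer at each later time, while the Jun TPM rose. They numbered 102 before induction and 68, 47 and 50 at 1h, 12h and 48h, all upstream and up to 885 kb away, in the direction of Fggy. Only 0.04% of 17013 baits had a larger loss from 0h to 48h than these 52 contacts. The contacts kept at 48h, 44 of the 102, had a median CHiCAGO score (the significance score of the caller) of 12.2 at 0h, and the 58 lost had 6.44, near the list's minimum of 5. Many of the 58 had a listed fragment nearby at 48h, since 87.3% of the 0h contacts of Jun, in place of 43.1%, were listed again when any fragment within 10 kb was counted. Of the 30 contacts with a score of at least 10 at 0h, 23 were listed at 48h, among them the highest scoring one, 798.0 kb away at a start of Fggy.

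The other promoters had fewer contacts, and most lists shortened. From 0h to 48h the contacts fell from 18 to 7 for Fosb, from 18 to 4 for Junb, from 18 to 5 for Jund, from 13 to 1 for Egr1 (by its other start) and from 34 to 16 for Ier2. They went from 13 to 19 for Fos, from 18 to 15 for Atf3 and from 20 to 24 for Batf3. For Fos, 12 of the 13 at 0h were also listed at 48h, and the 13 lay 97.6 to 148.0 kb upstream around Tmed10 and Nek9, while its mean TPM at 48h was 2.45 times that at 0h. Over all 10 genes, 53.4% of the 0h contacts were listed again at 48h for the identical fragment. Counting fragments within 10 kb, the share went from 38.9% to 77.8% for Fosb, from 44.1% to 73.5% for Ier2, from 11.1% to 27.8% for Junb and from 7.69% to 38.5% for Egr1. Of the pairs of genes among the 10, Atf3 and Batf3, 80.2 kb apart, were listed as in contact at all 4 time points. Ier2 and Junb, 303 kb apart, were listed at 0h and 1h only (score 12.2 at 0h), and Fos was listed with Jdp2, 120 kb away, at 12h only. A contact that is missing from a list may lie under the caller's threshold.

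**Figure D5:**
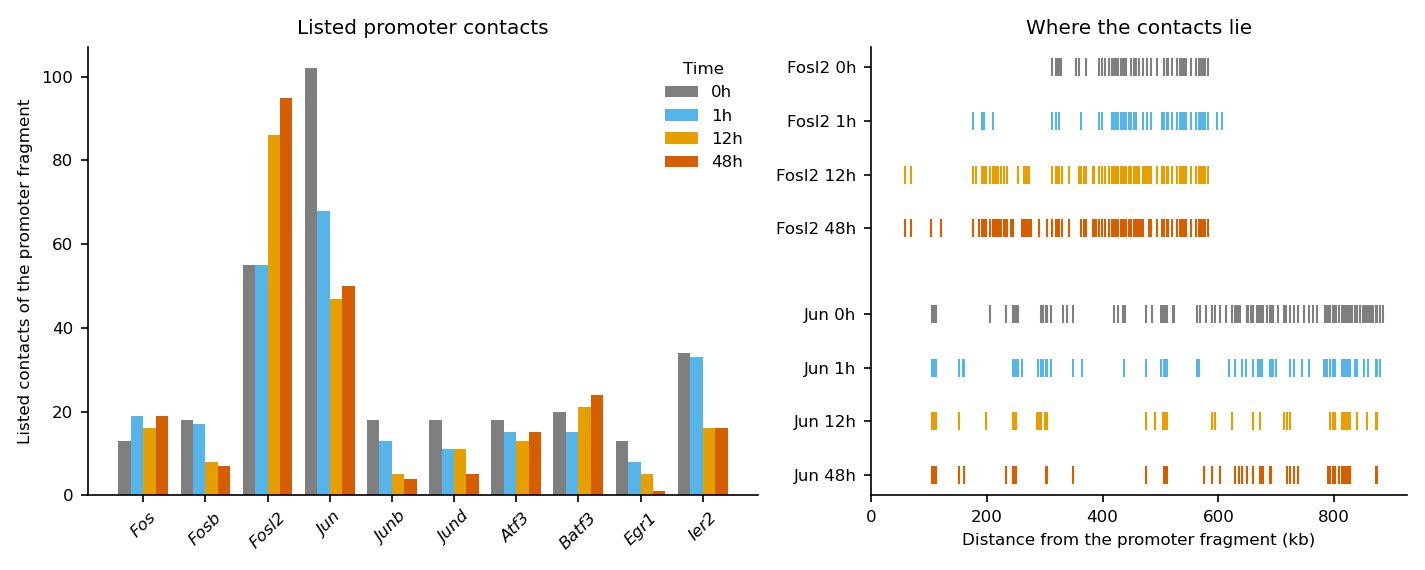
Left, number of listed PCHi-C contacts of each gene's promoter fragment (vertical axis, from 0) at each time point, 1 list each. Right, distance in kb between fragment centres for each listed contact of Fosl2 and Jun (1 tick per contact, 1 row per list), with the nearer contacts of Fosl2 added at 12h and 48h and the number for Jun going from 102 to 50.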

How the data were processed

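RNA-seq of 12 libraries (3 at each of 4 time points) and PCHi-C lists of 4 time points were used. The Hi-C libraries were not analysed here. Per the labels and the study's methods, the authors trimmed reads with Trim Galore 0.6.2, mapped them to mm10 with HISAT2 2.1.0 and deposited TPM, which keep no depth, so the depth behind a value is unknown here. The authors called PCHi-C contacts with CHiCAGO on 2 merged replicates. The list deposited for 0h gives a CHiCAGO score per contact, while those deposited for later times carry whole numbers of an unnamed unit, which were not used. Contacts were counted once per pair of fragments.

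A mean TPM of 0.1 or more was required, which left 16415 genes, tested on log2(TPM + 0.1), a log2 scale computed here from the deposited TPM, with limma 3.58.1 in R 4.3.3 (lmFit over all 12 libraries, eBayes with a trend, Benjamini-Hochberg over all genes, adjusted p under 0.05), and the model was tested on simulated data. The comparison of 48h with 1h was added after seeing the data, to order time points. Tables were handled with Python 3.11.15. The 10 genes and the gene lists were chosen with earlier results of these data known. All 10 genes were named; from the other lists, Fosl1, Batf, Jdp2, Srf, Dusp1, Zfp36 and, for each comparison with 0h, the 2 largest increases and 2 largest decreases among genes that passed the test with a mean TPM of at least 1 and no overlap between libraries. Some of these are given for 1 time point only, and marker lists as sums, with the means of some macrophage markers. The values of 1 gene that this rule names are not given. Alternatives varied the pseudocount, filter, scaling, trend, libraries and replicate block. Promoter windows came from RefSeq for 8 of the 10 genes, and none was taken for Egr1 or Ier2.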

Additional observations from a re-analysis of the deposited data

How the results depend on the processing

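Of the recomputed log2 differences of the 10 genes, 474 kept direction and side of the threshold in settings with all libraries (16 reversed, 41 newly passed, 14 no longer passed), and 574 did with 1 library left out (9, 11 and 6). The cause was not tested. TPM keep no depth, so what depth limits is unknown here. At a mean TPM of at least 1, Batf3 was not tested.

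Median-of-ratios scaling, quantile normalization and rescaling without the 20 most abundant genes each gave 4 lower genes at 1h, 2 lower at 12h against 0h, 8 higher at 12h against 1h and 2 lower at 48h against 12h. With a replicate block and median-of-ratios scaling these were 5, 3, 8 and 2. At 1h, 2 genes were higher with a pseudocount of 0.01, a mean TPM of at least 1, or only the 6 libraries compared. Requiring a log2 change beyond 1 left 1 lower gene at 48h against 0h and 2 lower at 48h against 12h. Beyond 2, there were 2 higher at 12h against 0h, 1 lower at 48h against 0h, 3 higher and 0 lower at 12h against 1h, and 1 higher and 1 lower at 48h against 12h. Counts that involve 12h include Batf3, whose calls there are fixed by the filter, and the 1 lower gene beyond 2 at 48h against 12h is Batf3.

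Reversed log2 differences were, under median-of-ratios scaling with and without the block, -0.17 for Jun and -0.57 for Ier2 at 1h, 0.29 for Junb at 48h against 12h and 0.14 for Ier2 at 12h against 1h. Quantile normalization gave -0.092, -0.40, 0.15 and 0.070 for these, and -0.088 for Batf3 at 48h against 0h. Rescaling gave -0.40 for Ier2 at 1h, 0.10 for Junb at 48h against 12h and 0.089 for Ier2 at 12h against 1h. With 1 library left out, Junb ranged from -0.077 to 0.044 at 1h and between -0.28 and 0.38 at 48h against 0h, Jund from -0.22 to 0.066 at 12h against 0h, Atf3 from -0.31 to 0.23 at 1h, and Batf3 from -0.26 to 0.31 at 48h against 0h.

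With 1 library left out, the genes higher and lower numbered 1 to 2 and 2 to 3 at 1h, 5 to 6 and 1 to 1 at 12h, 4 to 5 and 3 to 3 at 48h against 0h, 5 to 6 and 1 to 1 at 12h against 1h, and 4 to 5 and 3 to 5 at 48h against 12h. These ranges are over all 10 genes, and the share of all genes called was not computed for them. Those that involve 12h include Batf3, whose calls there are fixed by the filter.

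Replicate numbers were not taken to pair the libraries, since not every same-numbered pair correlated above 0.1 in its deviations from the group means. It did so in 11 of 18 same-numbered pairs (-0.042 to 0.423), all pairs of replicate 3 among them, and in 5 of 36 differently numbered pairs (-0.293 to 0.184), and 7 of 12 libraries correlated best with their own number. The replicate 3 libraries correlated positively with one another (0.121 to 0.423) and negatively with every library of another number and time point. They thus share a deviation that the main model leaves out, and its cause was not tested. The replicate block alone changed 1 call, Jund at 48h against 12h (0.62, limma adjusted p = 0.045).

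With a CHiCAGO score of at least 10, the 0h contacts numbered 112. Counting fragments within 10 kb as shared raised the share of contacts listed again from 63.1% to 93.5% (0h and 1h), 53.4% to 82.8% (0h and 12h), 53.4% to 80.3% (0h and 48h), 61.8% to 83.9% (1h and 12h) and 75.9% to 90.3% (12h and 48h).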
